A study of Homo sapiens with 6 samples.

Results

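The urokinase, tissue factor and thrombin receptor genes are a group of 9 genes of the plasminogen activator system, of the start of coagulation and of the receptors that clotting proteases cleave. They were listed by symbol as PLAU, PLAUR, PLAT, SERPINE2, SERPINB2, F3, TFPI, F2R and F2RL1, and each was read from its brightest probe set among those annotated with that single symbol. Of the 9 genes, 7 were measured in this way, out of 18417 genes in all, while SERPINB2 and F2RL1 are named only. The list was chosen by measured values, namely lower F3, F2R and PLAU in treated than in control arrays, so the differences between those arrays describe the choice and carry no test here.

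The RNA came from MDA-MB-231 cells, an established human triple-negative breast cancer line, grown with 10% serum and read on Affymetrix arrays. One group of 3 arrays came from cells given the vehicle DMSO, and the other group of 3 came from cells given 10 µM YW3-56, known as an inhibitor of peptidylarginine deiminases, for 8 h. The labels give no separate time for the vehicle. They call the replicates biological but do not say how the cultures were separated, so the p-values below cover the spread between these arrays only. All values are the authors' RMA values as deposited, in log2 units, where 1 unit is a 2-fold difference, and levels are compared only within a gene.

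Urokinase, the product of PLAU, is a secreted protease that turns plasminogen into plasmin, and its receptor uPAR, the product of PLAUR, holds it at the cell surface. Tissue factor, the product of F3, is the cell surface protein that binds factor VII and starts coagulation, which ends in thrombin. Thrombin cleaves the receptor PAR1, the product of F2R, and the cleaved end of the receptor then activates it from within. Invasive breast cancer lines are known for high urokinase and tissue factor, and serpins and Kunitz inhibitors such as SERPINE2 and TFPI hold these proteases back.

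The sequences upstream of F3, PLAUR and PLAU are shown because these genes encode the initiator of coagulation, the urokinase receptor and urokinase itself, and were all lower in treated cells. They come from RefSeq (GRCh38.p14), run 5′ to 3′ on the strand of the gene and cover the 250 bases before an annotated start site. Of the 7 measured genes, 5 had such a sequence in the table used here. In F3 and PLAUR the capitals mark the AP-1 motif TGANTCA and the kappaB-like motif GGNNTTTCC, and in PLAU they mark the GC box GGGCGG, the core of an Sp1 site. The motifs were picked with these sequences in view: GGNNTTTCC was written to take in the known kappaB-like site of F3, and the GC box was marked in PLAU after no AP-1 match was found there.
F3 (chr1:94541760-94542009, minus strand): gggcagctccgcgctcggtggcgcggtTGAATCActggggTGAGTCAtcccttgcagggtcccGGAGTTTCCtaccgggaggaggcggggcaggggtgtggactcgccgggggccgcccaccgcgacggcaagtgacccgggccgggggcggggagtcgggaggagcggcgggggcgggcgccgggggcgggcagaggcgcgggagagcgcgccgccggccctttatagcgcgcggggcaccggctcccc
PLAUR (chr19:43670170-43670419, minus strand): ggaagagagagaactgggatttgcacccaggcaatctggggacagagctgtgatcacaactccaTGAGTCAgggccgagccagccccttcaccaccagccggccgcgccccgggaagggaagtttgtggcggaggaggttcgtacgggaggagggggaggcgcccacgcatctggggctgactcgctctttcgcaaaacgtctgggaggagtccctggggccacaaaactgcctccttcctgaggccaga
PLAU (chr10:73910882-73911131, plus strand): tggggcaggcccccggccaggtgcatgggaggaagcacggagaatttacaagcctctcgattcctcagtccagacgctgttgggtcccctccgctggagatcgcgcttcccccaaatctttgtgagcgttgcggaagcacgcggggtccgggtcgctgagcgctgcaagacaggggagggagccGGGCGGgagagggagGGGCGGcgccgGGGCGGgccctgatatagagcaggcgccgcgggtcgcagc

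The F3 window held 2 AP-1 matches, starting at -223 and -210 bases from the start site, and 1 kappaB-like match at -187. It also held 4 GC boxes, 1 match to the EGR1 motif GCGNGGGCG, which overlaps a GC box, and 1 match to TATAAA on the other strand. The PLAUR window held 1 AP-1 match at -186 and 1 EGR1 match at -90. The PLAU window printed above belongs to the downstream of its 2 start sites and held 3 GC boxes and no AP-1 match, and the upstream one held no match to any motif searched. Both start sites of SERPINE2 had GC boxes only, and the TFPI window held no match.

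Both strands were searched in every case. Among all 35116 promoter windows of this length in the table, 6.57% held an AP-1 match, 5.48% a kappaB-like match, 42.6% a GC box, 8.41% an EGR1 match and 10.7% a TATAAA match. Searches for the CRE motif TGACGTCA (1.65% of windows), the C/EBP-ATF element TGATGNAA (3.14%), the heat shock element GAANNTTC (5.78%) and the ETS motif CCGGAAGT (3.42%) found no match upstream of these 5 genes. A match is a run of letters and does not show that a factor binds there, and the letters outside these windows were not searched.

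**Figure D1:**
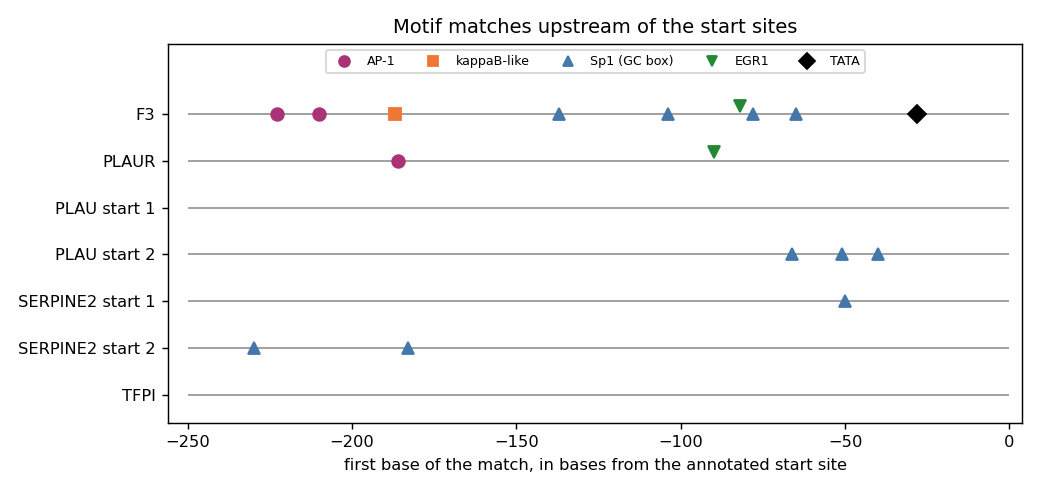
Positions of motif matches in the 250 bases upstream of annotated start sites, 1 line per start site, with the first base of each match on the horizontal axis in bases from the start site. F3 carries AP-1 matches at -223 and -210 and PLAUR carries 1 at -186, while the lines for PLAU, SERPINE2 and TFPI carry none.

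Pearson correlations between arrays, taken over genes, were 0.990 to 0.997 within groups and 0.980 to 0.985 between them. DMSO replicate 1 stood apart on the second principal component (21.9% of the variance). Its score was 22.2, against -4.77 and -15.44 for the other DMSO arrays, so the members are also given without this array. YW3-56 replicate 1 lay on the same side, at 9.77 against -9.72 and -2.06 for the other treated arrays. Leaving out DMSO replicate 1 alone keeps the treated array of the same number, so it unbalances the pairing of arrays by number described below. The 7 marker genes of the line, among them VIM, CD44 and AXL, had mean signals (log2 of the mean on the linear scale) of 12.62 to 12.65 in DMSO and 12.53 in each treated array. In limma 0 of the 7 were called, with 5 lower and 0 higher at an unadjusted p under 0.05. ESR1 and PGR, the hormone receptors that define luminal cells, had DMSO means of 6.82 and 5.96. The rest of the luminal list read higher in DMSO: KRT18 11.88, KRT8 11.66, ERBB2 9.09, FOXA1 8.70 and GATA3 7.57. CD68 of the leukocyte list read 12.16 and SPARC of the line's own list 7.66, so the lists do not separate cell types cleanly by level. Of the 27 measured markers of endothelial cells, platelets, leukocytes and fibroblasts, 0 were called by limma, with 1 higher and 1 lower at an unadjusted p under 0.05. In the luminal list 3 of 7 were called, with FOXA1 higher and GATA3 and KRT18 lower, and the part of this in the values below was not tested.

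PLAU, the urokinase gene, was lower on every treated array. The 3 DMSO arrays read 10.93, 10.68 and 10.48, and the 3 treated arrays read 9.76, 9.16 and 9.48 for replicates 1, 2 and 3. The lowest DMSO array was 0.72 above the highest treated array, so the groups did not overlap. The group means were 10.70 ± 0.23 (SD, n = 3) in DMSO and 9.47 ± 0.30 (n = 3) in YW3-56, a difference of -1.23 ± 0.17 (SE), or 2.34-fold lower. Without DMSO replicate 1 the difference was -1.11.

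PLAUR, which encodes the urokinase receptor, was lower by a smaller amount but with little spread between control arrays. DMSO arrays read 11.98, 11.97 and 12.02, and treated arrays read 11.34, 11.27 and 11.46. All treated arrays lay at least 0.50 below the lowest control. The means were 11.99 ± 0.03 and 11.36 ± 0.10, a difference of -0.63 ± 0.08, or 1.55-fold lower, and -0.64 without DMSO replicate 1. The protease and its receptor were thus both lower, and the receptor's DMSO arrays were the tightest of the 7 genes.

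PLAT encodes tissue plasminogen activator, the plasminogen activator best known for dissolving fibrin. Its DMSO arrays read 9.11, 9.09 and 8.88 and its treated arrays 9.36, 9.23 and 9.30. The treated arrays were higher without overlap, but the gap was only 0.12. The difference was 0.27 ± 0.09, or 1.20-fold, the smallest of the 7 measured genes. Without DMSO replicate 1 it was 0.31. The direction of this plasminogen activator was therefore opposite to that of PLAU.

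SERPINE2 encodes protease nexin 1, a serpin that inhibits thrombin, urokinase and tissue plasminogen activator. It read 9.73, 9.34 and 9.38 in DMSO and 10.30, 10.12 and 10.33 in YW3-56. Every treated array lay above every control, with a gap of 0.39. The means of 9.48 ± 0.21 and 10.25 ± 0.11 differed by 0.77 ± 0.12, or 1.70-fold, and by 0.89 without DMSO replicate 1. SERPINE2 had the largest higher value in treated cells among the 7 genes.

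F3, the tissue factor gene, had the largest difference of the group. Its DMSO arrays read 10.96, 10.38 and 10.34, and its treated arrays read 9.12, 8.67 and 8.89. DMSO replicate 1 was the high control array, and the groups were separated by 1.22. The means of 10.56 ± 0.35 and 8.89 ± 0.22 differed by -1.66 ± 0.18, or 3.17-fold, and by -1.46 without DMSO replicate 1. F3 ranked 11 from the largest decrease among the 18417 genes, PLAU 43 and F2R 50, which describes why they were picked.

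TFPI encodes tissue factor pathway inhibitor, the Kunitz-type protein that blocks tissue factor bound to factor VII. DMSO arrays read 9.43, 9.79 and 9.75, and treated arrays read 9.14, 9.39 and 9.26. The gap between the groups was only 0.04, since DMSO replicate 1 was the low control and YW3-56 replicate 2 the high treated array. The difference was -0.39 ± 0.11, or 1.31-fold lower, and -0.51 without DMSO replicate 1. Tissue factor and its inhibitor were thus both lower, by unequal amounts.

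F2R encodes PAR1, the main thrombin receptor on many cell types. It read 9.05, 8.74 and 8.60 in DMSO and 7.77, 7.45 and 7.61 in YW3-56. The highest treated array was 0.83 below the lowest control. The means of 8.80 ± 0.23 and 7.61 ± 0.16 differed by -1.19 ± 0.13, or 2.28-fold, and by -1.06 without DMSO replicate 1.

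**Figure D2:**
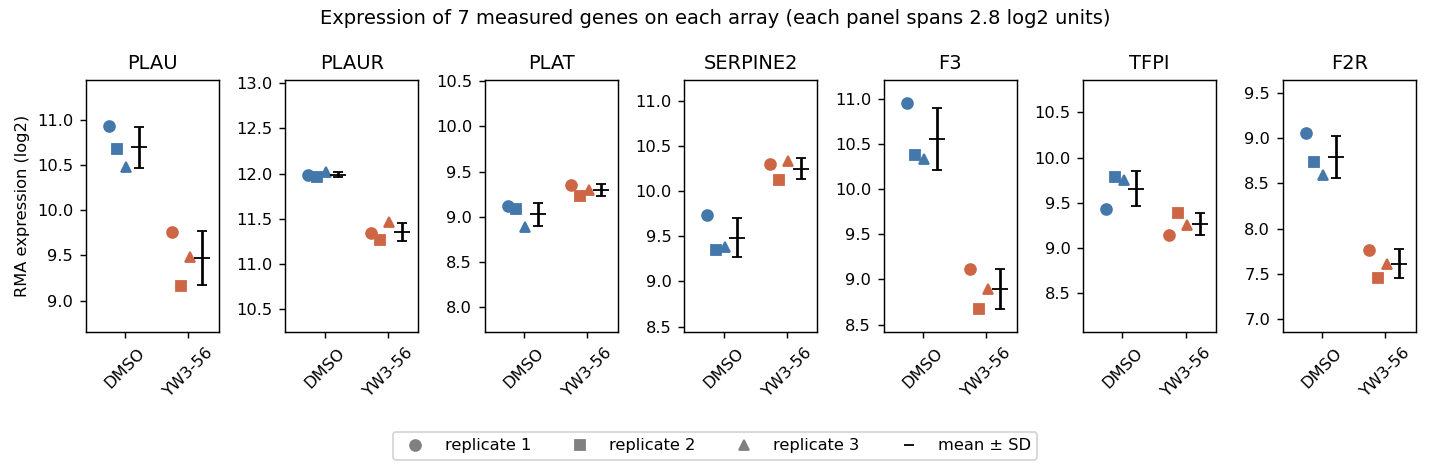
RMA expression (log2) of the 7 measured genes on each of the 6 arrays, DMSO in blue and YW3-56 in orange, with symbols for replicate number and bars for the mean and SD of 3 arrays. Treated arrays lie below the controls for PLAU, PLAUR, F3, TFPI and F2R and above them for PLAT and SERPINE2, with the widest gap (1.22) in F3 and the narrowest (0.04) in TFPI.

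The arrays took the same order in F3, PLAU and F2R. In each of the 3 genes DMSO replicate 1 was the highest control and replicate 3 the lowest, and YW3-56 replicate 1 was the highest treated array and replicate 2 the lowest. TFPI ran the other way, with replicate 1 the lowest array of both groups. Differences between arrays of the same number were -1.84, -1.70 and -1.45 for F3 and -1.17, -1.51 and -1.001 for PLAU. They were -1.29, -1.29 and -0.98 for F2R and 0.57, 0.78 and 0.95 for SERPINE2. Each number gave the same direction for these 4 genes, and also for PLAUR (-0.70 to -0.55), TFPI (-0.50 to -0.29) and PLAT (0.14 to 0.41).

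In the limma fit across all genes, at a Benjamini-Hochberg adjusted p under 0.05, 5 of the 7 genes were called lower and 1, SERPINE2, was called higher. Over all 18417 genes 11.5% were called lower, 9.84% higher and 21.4% in either direction. The treated arrays lay wholly below the controls for 5 genes, against 21.4% of all genes, and wholly above them for 2, against 15.5%, so that the groups did not overlap for all 7, against 36.9%. Calls of at least 2-fold lower were made for F3, PLAU and F2R, against 0.527% of all genes. These counts follow from how the genes were picked and nothing is read from them. The median difference of the 7 was -0.63, beside -0.05 over all genes. TFPI was the weakest of the calls and was lost when any array other than DMSO replicate 1 was left out, and also after a second quantile normalization.

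**Figure D3:**
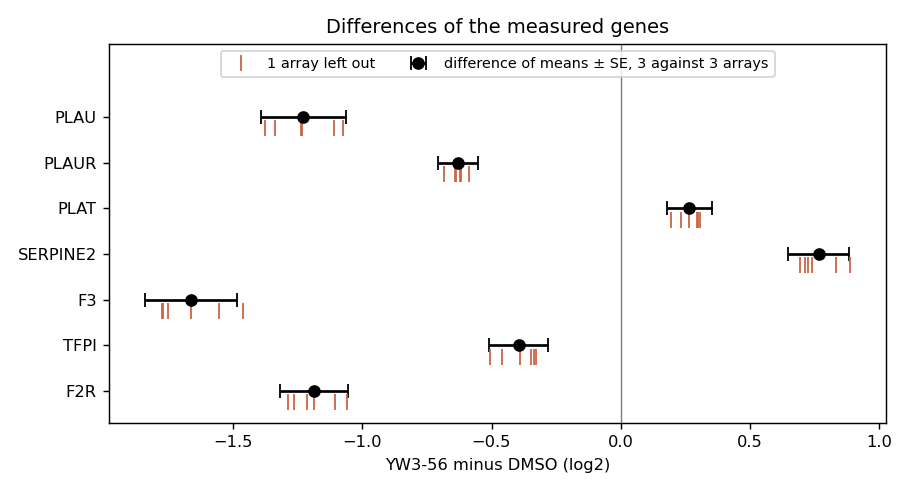
Difference between YW3-56 and DMSO means (log2, black points, with bars for the SE of the limma fit, 3 against 3 arrays) for each measured gene, and the same difference with each of the 6 arrays left out in turn (orange ticks). Leaving out 1 array moved F3 between -1.78 and -1.46 and changed the sign of none of the 7 genes.

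The other genes of the plasminogen system, such as further serpins and the receptors that clear protease complexes, mostly did not pass. Of 21 measured, 3 were higher, 1 was lower and 17 did not pass (median -0.06, with 19.0% called against 21.4% of all genes). VLDLR, a receptor that takes up urokinase bound to its inhibitor, rose by 1.02 ± 0.17 (limma adjusted p = 0.0039). SERPINI1, or neuroserpin, an inhibitor of tissue plasminogen activator, rose by 0.53 ± 0.09, and SERPINB8 by 0.48 ± 0.10. SERPINB9, an intracellular inhibitor of granzyme B, fell by 0.84 ± 0.10 (limma adjusted p = 8.5e-04). In a fit with the replicate block, 5 were higher, and without DMSO replicate 1, 2 were lower.

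Among 33 measured coagulation factors and anticoagulants, 3 were lower, 0 were higher and 30 did not pass (median -0.01, 9.09% called). At an unadjusted p under 0.05 in limma, 3 were higher. Several genes that did not pass read low in DMSO, such as FGG (4.50), F9 (4.62) and F13B (5.30). For these a missing call says little. THBD encodes thrombomodulin, which binds thrombin and turns it toward activating protein C. It fell from 9.13 ± 0.08 to 8.22 ± 0.12, by 0.91 ± 0.09 (limma adjusted p = 4.4e-04). PROCR, the endothelial protein C receptor, which presents protein C to that complex, fell by 0.35 ± 0.08. VKORC1L1, a vitamin K epoxide reductase, fell by 0.50 ± 0.08. The PROCR call was lost without DMSO replicate 2 (limma adjusted p = 0.0521) or YW3-56 replicate 3 (0.0696), and that of VKORC1L1 when its probe sets were averaged (-0.22, adjusted p = 0.0650). F13A1, a subunit of the fibrin cross-linking factor XIII, differed by -0.42 ± 0.19 (limma adjusted p = 0.166) and was called without YW3-56 replicate 1 (0.0192), with the replicate block (0.0197) and with array weights (0.0288, and 0.0042 by the REML method). Counts of higher genes were 2 with the block and 2 without DMSO replicate 1.

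Protease-activated receptors couple to the G proteins of the Gq, G12/13 and Gi classes and are switched off by receptor kinases and arrestins. Of 35 measured genes of this signalling, 3 were higher, 5 were lower and 27 did not pass (median -0.04, 22.9% called). RGS2, which shortens Gq signalling, rose by 1.10 ± 0.13 (limma adjusted p = 0.0010). ARRB1, encoding beta-arrestin 1, fell by 0.72 ± 0.19, and GRK5, a receptor kinase, by 0.42 ± 0.08 (limma adjusted p = 0.0059). Further calls, named after their values were seen, were CCN2 (0.25), a matricellular protein induced by thrombin, and ARHGEF1 (-0.33), GNA12 (-0.30) and PLCB3 (-0.28), which relay receptor signals.

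Of the 8 calls in this list, those of RGS2 and GRK5 held when each array was left out in turn. The higher count was 1 without DMSO replicate 2 or 3 or any treated array and 5 without DMSO replicate 1. The lower count was 1 without DMSO replicate 2 or YW3-56 replicate 2 or 3, 8 with the replicate block, and 2 after centring of each array, which left 1 higher. ARRB1 had a limma adjusted p of 0.0629 without DMSO replicate 2, 0.0927 without YW3-56 replicate 2 and 0.115 without YW3-56 replicate 3. The CCN2 call was also lost with the block (0.0530).

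uPAR has no cytoplasmic part and is known to act through integrins and neighbouring receptors. Of 27 measured partner and adhesion genes, 6 were lower, 0 were higher and 21 did not pass (median -0.15, 22.2% called). Over all genes 21.4% were called in either direction and 11.5% were called lower. At an unadjusted p under 0.05 in limma, 11 were lower and 0 higher. The same count gave 11 lower and 4 higher in receptor signalling and 10 and 4 among matrix proteases. It gave 2 and 4 in the plasminogen system, 3 and 3 in coagulation and 14 and 12 among transcription and decay factors. The share of all genes at this unadjusted threshold was not counted, so nothing is read from these counts. ITGA6, the laminin-binding integrin subunit alpha 6, fell by 0.83 ± 0.14 (limma adjusted p = 0.0039), and ITGA2, a collagen-binding subunit, by 0.71 ± 0.14. The adaptor BCAR1, or p130Cas, fell by 0.62 ± 0.08, and the focal adhesion protein gene PXN, paxillin, by 0.58 ± 0.10. CAV1 (-0.43), which encodes caveolin 1, and ITGB2 (-0.31), a leukocyte integrin subunit, made up the 6 and were named after their values were seen. The ITGB2 call was lost without DMSO replicate 2 (0.0571) or YW3-56 replicate 2 (0.0741) or 3 (0.0660), and after centring of each array (0.0741).

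Matrix and cell-surface proteases and their inhibitors changed in 5 of 52 measured members, with 2 higher, 3 lower and 47 not past (median -0.09, 9.62% called). ADAM17, the sheddase of TNF and of EGF receptor ligands, rose by 0.83 ± 0.11 (limma adjusted p = 0.0017), and MMP16, a membrane-bound metalloprotease named after its value was seen, by 0.38. ADAMTS1, a proteoglycan-cleaving protease, fell by 0.78 ± 0.16, RECK, a membrane inhibitor of metalloproteases, by 0.51 ± 0.14, and ADAM8 by 0.41 ± 0.07. The RECK call was lost without DMSO replicate 2 or any treated array and after either rescaling, with limma adjusted p from 0.0507 to 0.113, and the MMP16 call when its probe sets were averaged (0.0737). The lower count was 9 with the replicate block, 7 without DMSO replicate 1 and 5 without YW3-56 replicate 1. No matrix metalloprotease gene was among the genes called lower in the main fit. Several read low in DMSO, such as MMP8 (5.23), MMP7 (5.51) and MMP12 (5.61), while MMP14 read 9.70. For the dim ones a missing call says little.

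Transcription factors and mRNA decay factors tied to these genes had the highest share of calls among the 6 lists, counting both directions together. Of 39 measured, 11 were higher, 8 were lower and 20 did not pass (median -0.01, 48.7% called against 21.4% of all genes, with no test of that share). The list was chosen with earlier results of these data known, and its dimmest gene in DMSO was ATF3 at 7.01. The coagulation and protease lists hold dimmer genes, such as FGG (4.50) and MMP8 (5.23), so nothing is read from the share. EPAS1, the hypoxia factor HIF-2 alpha, rose by 1.44 ± 0.16 (limma adjusted p = 6.6e-04). EGR1, an immediate early factor, rose by 1.05 ± 0.21, and ATF3, a stress-induced factor, by 0.72 ± 0.10. HIF1A, the hypoxia factor HIF-1 alpha, named after its value was seen, differed by -0.65 ± 0.22 and did not pass (limma adjusted p = 0.0732). SMAD3, which carries TGF-beta signals, fell by 1.11 ± 0.12 (limma adjusted p = 6.8e-04). The lower count was 5 without YW3-56 replicate 2.

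The AP-1 family, whose motif stands in the F3 and PLAUR windows, was looked at within this list after its values were seen. Of 9 genes, 4 were higher, 2 were lower and 3 did not pass. FOSL1, encoding FRA-1, the AP-1 member known for high levels in invasive breast cancer lines, fell from 12.43 ± 0.08 to 11.90 ± 0.05 (-0.54 ± 0.08, limma adjusted p = 0.0021), and FOSL2 by 0.44 ± 0.10. JUND rose by 0.68 ± 0.08, JUNB by 0.55 ± 0.10 and ATF2 by 0.47 ± 0.07, beside ATF3. JUN differed by -0.35 ± 0.12 (limma adjusted p = 0.0708), FOS by 0.09 and FOSB by 0.14. The FOSL2 call was lost without YW3-56 replicate 2 (0.0697) and after centring of each array (0.0517). Of the NF-kB family, whose motif was marked in F3, NFKB2 rose by 0.57 ± 0.17 (limma adjusted p = 0.0444). That call was lost when any array other than DMSO replicate 1 was left out. NFKB1 (-0.31), RELB (-0.13), REL (0.05) and RELA (-0.005) did not pass. The EGR1 motif also had a match in the F3 and PLAUR windows, and EGR1 rose by 1.05 ± 0.21. A part of either family or of EGR1 in the values of F3 and PLAUR was not tested.

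AU-rich elements, which the mRNAs of PLAU and PLAUR are known to carry, are bound by decay and stability factors, named here after their values were seen. ZFP36, encoding tristetraprolin, which speeds decay, rose by 0.43 ± 0.10. ELAVL1, encoding the stabilising protein HuR, fell by 0.38 ± 0.08. HNRNPD, encoding AUF1, fell by 0.37 ± 0.07, and it is not counted here as a stabilising factor. The related decay factors KHSRP (-0.20) and ZFP36L1 (-0.19), which also speed decay, did not pass, nor did ZFP36L2 (0.06), CNOT1 (0.04) and PABPC1 (-0.01). The ZFP36 call was lost without YW3-56 replicate 1 (0.0539) or 2 (0.0576), and the ELAVL1 call without YW3-56 replicate 2 (0.0523) or 3 (0.0607). A part of these factors in the values of PLAU and PLAUR was not tested.

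**Figure D4:**
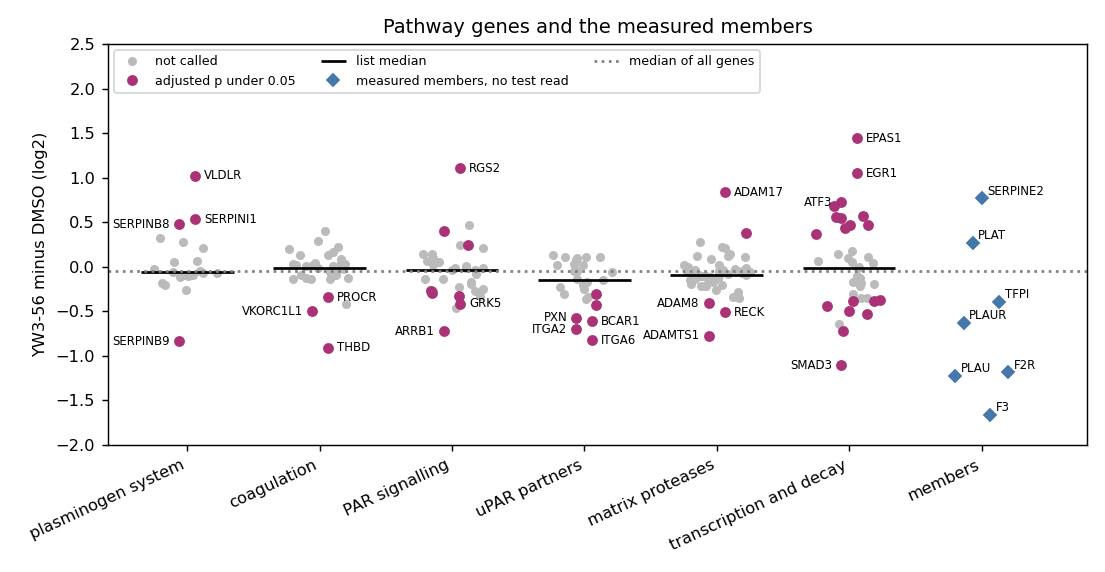
Difference between YW3-56 and DMSO (log2) for each measured gene of the 6 pathway lists, with called genes in purple, other genes in grey and the list median as a black line, and for the 7 measured members in blue. The list medians lie between -0.15 and -0.01, near the median of all genes at -0.05 (dotted line).

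The genes most like F3, F2R and PLAU were found as those with the smallest root mean square distance between log2 values over the 6 arrays, each gene centred on its DMSO mean. The genes closest to F3 were TFRC, the transferrin receptor, at a distance of 0.07, ADORA2B, an adenosine receptor, at 0.14, and PTX3, a secreted pattern recognition protein, at 0.14. Those closest to F2R were CDK15 at 0.04, the growth factor FGF5 at 0.05 and the ribosome assembly gene MAK16 at 0.08. Those closest to PLAU were CDK15 at 0.08, the anthrax toxin receptor ANTXR2 at 0.11 and the growth factor PDGFC at 0.12. CDK15 appeared for both F2R and PLAU, which have nearly the same difference. The measure follows the treatment difference and the shared order of arrays, so it ranks similar profiles and no more.

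**Figure D5:**
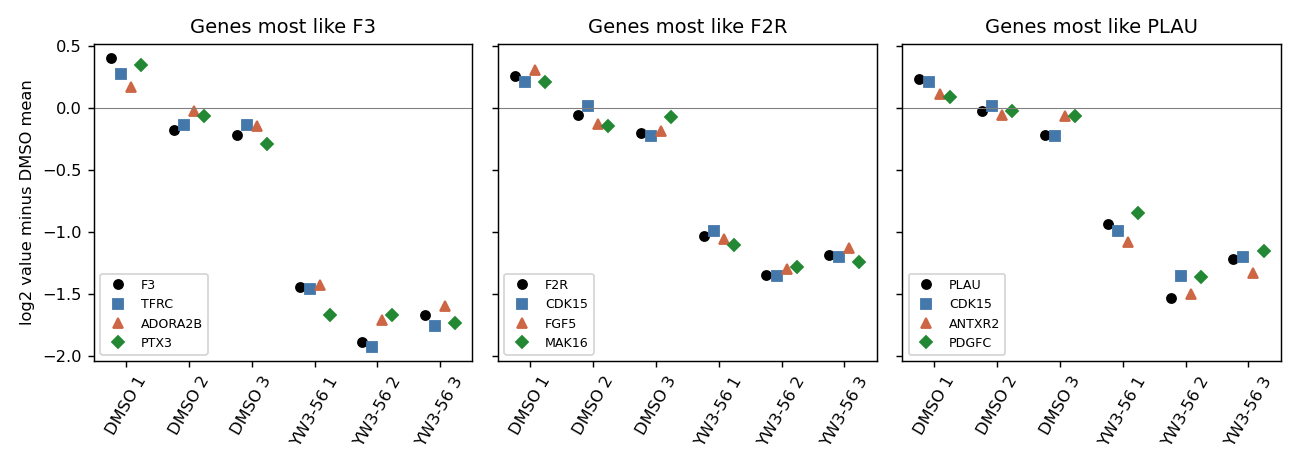
Values of F3, F2R and PLAU (black circles) and of the 3 genes closest to each (coloured symbols) on the 6 arrays, as log2 value minus the gene's own DMSO mean. In every panel DMSO replicate 1 lies above 0 and all treated arrays lie far below it, with F3 and its closest genes lowest.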

How the data were processed

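The authors' deposited table held log2 values of 33297 probe sets on 6 arrays, a column each. RMA and the affy package made them, per the submitters' processing notes, with versions and genome build not given in the sources used here. This method equalises probe intensity distributions between arrays, so a shift of all transcripts would not be seen. The medians of the deposited probe set values still differed. They ran from 7.55 (replicate 1) to 7.74 (replicate 3) in DMSO and from 7.58 (replicate 1) to 7.65 (replicate 2) in YW3-56. Names came from the platform annotation, which can be old: 19460 had a single gene symbol, 1754 several and 12083 none, and 19429 of the first were matched to RefSeq by Entrez identifier. Arrays carry no read depth, so their number limits precision.

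The brightest probe set by mean of 6 arrays stood for each of 18417 genes. The fit was limma 3.58.1 in R 4.3.3 (lmFit, eBayes, group only, two-sided, Benjamini-Hochberg over all genes, 4 residual degrees of freedom). It was also run on simulated data with noise drawn independently for each gene and array. Those data lacked the structure shared between the real arrays, so the run does not vouch for the calls made here. SE are limma's moderated ones.

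The members and lists were chosen with earlier results of these data known. All members were named, with up to 4 genes per list (called first, then by size) and the 3 genes most like F3, F2R and PLAU, without symbols that begin with LOC, MIR or SNOR. A gene that this rule picked in receptor signalling is not reported here.

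Deviations from group means correlated at 0.54, 0.37 and 0.10 between arrays numbered 1, 2 and 3, each over 0.1, so the numbers were taken as a pairing found in the data. The third value is only 0.102, and YW3-56 replicate 2 correlated at 0.42 with DMSO replicate 3. Alternatives were leaving out each array, the replicate block, a second quantile normalization, centring, filters at a mean of 6 and 7, averaged probe sets, a trended robust prior and array weights. For the weights, limma's default REML method stopped without converging. The gene-by-gene method was taken in its place after the counts of calls from both had been seen, and both are given. The motifs searched in the promoters were also picked with the sequences in view.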

Additional observations from a re-analysis of the deposited data

How the results depend on the processing

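No alternative turned the sign of any of the 7 measured members or moved a member's difference by more than its SD between arrays, pooled over both groups (0.07 for PLAUR to 0.29 for F3). Set against the SD of a single group, some shifts were larger: PLAUR came to -0.68 without YW3-56 replicate 3, against -0.63. Leaving out 1 array in turn gave 2364 to 4689 calls over all genes, 1158 to 2084 higher and 1206 to 2605 lower, against 3933, 1812 and 2121. In the lists it gave 3 to 4 higher and 1 to 2 lower for the plasminogen system, 0 to 2 and 2 to 4 for coagulation, 1 to 5 and 1 to 7 for receptor signalling, 2 to 3 and 2 to 7 for matrix proteases and 9 to 11 and 5 to 10 for transcription and decay factors. The lower uPAR partners ran from 5 to 9. The replicate block gave 5 higher in the plasminogen system, 2 higher in coagulation, 8 lower in receptor signalling and 9 lower among matrix proteases. It called 4776 genes in all, and its pairing changed the call of no member. A second quantile normalization gave 2 higher in coagulation and 4 higher among matrix proteases, and split all calls into 2114 higher and 2025 lower. Centring gave 1691 higher and 1432 lower over all genes, and 1 higher and 2 lower in receptor signalling. A mean of at least 6 gave 1 higher in coagulation, and a mean of at least 7 gave 1 there and 6 lower among matrix proteases. Averaged probe sets gave 1 higher in coagulation and 1 higher among matrix proteases. The trended prior gave 1 higher in coagulation, 9 lower in receptor signalling, 10 lower among uPAR partners, 7 lower among matrix proteases and 14 lower among transcription and decay factors. Array weights gave 6079 calls, 3432 of them lower, with 3 lower in the plasminogen system, 4 higher and 5 lower in coagulation, 6 and 12 in receptor signalling, 10 lower among uPAR partners and 5 higher and 9 lower among matrix proteases. They weighted DMSO replicate 2 at 2.94 and DMSO replicate 1 at 0.33. This is the gene-by-gene method, picked after seeing the data. The default REML method, which stopped without converging and weighted DMSO replicate 2 at 13.6, gave 9156 calls, 3642 higher and 5514 lower, with 5 lower in the plasminogen system, 6 higher and 6 lower in coagulation, 8 and 13 in receptor signalling, 2 and 12 among uPAR partners, 5 and 20 among matrix proteases and 15 lower among transcription and decay factors. Of 45 called list genes, 31 kept their call without each array in turn. PLAT was called higher without DMSO replicate 1, after the second quantile normalization, at a mean of at least 7, with the trended prior and with array weights by both methods. The causes of these shifts were not tested.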
